A study of Mus musculus with 19 samples.

Results

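The T and NK cell genes described here are Cd3d, Cd3e, Cd3g, Cd4, Cd8a, Cd8b1, Lck, Nkg7, Gzma and Klrd1. They were taken by symbol from a table of read counts of mouse liver, and all 10 were found among its 35976 rows. RNA from 19 livers was sequenced, from mice whose Pkd1 genotype is labelled WT (7 mice), Het (6 mice) or Homo (6 mice). Pkd1 encodes polycystin-1, the protein altered in most families with dominant polycystic kidney disease. All 3 genotypes received AAV-Cre, an adeno-associated virus that delivers Cre recombinase, so the WT controls carry the virus too. All 19 mice were also kept for 3 months on a Western diet combined with CCl4, a liver toxin, which together model non-alcoholic steatohepatitis (NASH). The labels do not state the age or sex of the mice, the promoter that drives Cre, or which part of Pkd1 is removed. Every group is a diseased liver, and no liver on normal food was used here.

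T cells recognise antigen through a receptor whose signal is carried into the cell by the CD3 chains, encoded by Cd3d, Cd3e and Cd3g. The coreceptors CD4 and CD8, the latter a dimer of the products of Cd8a and Cd8b1, bind MHC molecules and bring the kinase Lck to the receptor, where it phosphorylates the CD3 chains. Cytotoxic T cells and NK cells kill through granules that hold proteases such as granzyme A, the product of Gzma, and a membrane protein encoded by Nkg7. Klrd1 encodes CD94, which pairs with NKG2 proteins to read a non-classical MHC molecule. The normal liver is rich in NK cells and T cells, and in steatohepatitis CD8+ T cells in particular have been studied for their part in injury and in tumour surveillance.

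These genes were counted at low levels, with medians over the 19 livers from 4 reads (Cd3g) to 36 reads (Lck), and no difference between genotypes passed the test. The mean level was highest in Homo livers for 9 of the 10 genes and in WT livers for Cd3d, but the ranges of the genotypes overlapped for each of the 10 genes in every comparison. Of all tested genes, 0.911% had ranges that did not overlap in Homo against WT, 0.194% in Het against WT and 0.686% in Homo against Het. The largest differences in edgeR, a count model fitted across all genes, were those of Cd3e and Cd3g. Cd3e was 1.16 ± 0.35 (SE) on the log2 scale above Het in Homo livers, with an adjusted p of 0.376. Cd3g was 1.29 ± 0.53 above WT in Homo livers, with an adjusted p of 0.384.

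The libraries held 25.8 to 42.1 M counted reads each (M for mega), and Alb, which encodes albumin and marks hepatocytes, stood at 4378 ± 617 (SD, n = 19) reads per kilobase of exon and M reads (RPKM). Ptprc, which encodes CD45 and marks all leukocytes, stood at 3.01 ± 0.463 RPKM on the same scale. The targeted gene differed little: Pkd1 was at 328 to 452 counts per M reads (CPM) in WT, 340 to 445 in Het and 334 to 380 in Homo, with an adjusted p of 0.315 in edgeR for Homo against WT. These whole-gene counts do not show whether a part of the gene is missing. In bulk liver, fewer cells of a type and less RNA per cell cannot be told apart.

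The 10 genes gave 190 values, 1 for each gene in each liver. Of these values, 7 were 0, 78 (41.1%) were under 10 reads, and the highest was 86 reads. The 7 zeros were Cd3d in mice 7, 17 and 19, Cd8b1 and Lck in mouse 13, and Nkg7 in mice 9 and 20, where the number is that in the sample's title. A count of 0 in these libraries allows a level of up to 0.0760 to 0.116 CPM (3 reads), for counting error only. The filter on low counts was passed by 6 genes, Cd3e, Cd4, Cd8a, Lck, Gzma and Klrd1. The other 4, Cd3d, Cd3g, Cd8b1 and Nkg7, have values only from a fit without that filter.

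Per length of exon, Klrd1 was the highest of the 10 genes, at 0.669 ± 0.228 RPKM (mean ± SD, n = 19). It stood above Lck, at 0.350 ± 0.194 RPKM, by more than either gene's SD. From Lck on, each gene differed from the next by less than the larger of their SDs. Cd4 was at 0.260 ± 0.113, Gzma at 0.244 ± 0.163, Nkg7 at 0.188 ± 0.151 and Cd3e at 0.165 ± 0.0930 RPKM. Cd8a followed at 0.164 ± 0.0975, Cd8b1 at 0.119 ± 0.0716, Cd3d at 0.102 ± 0.0906 and Cd3g at 0.0451 ± 0.0336 RPKM. These SDs give the spread between livers, and the order of the genes was not tested. All 10 genes were below the leukocyte gene Ptprc, and Adgre1, the macrophage gene for F4/80, was at 6.25 ± 1.05 RPKM.

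**Figure D1:**
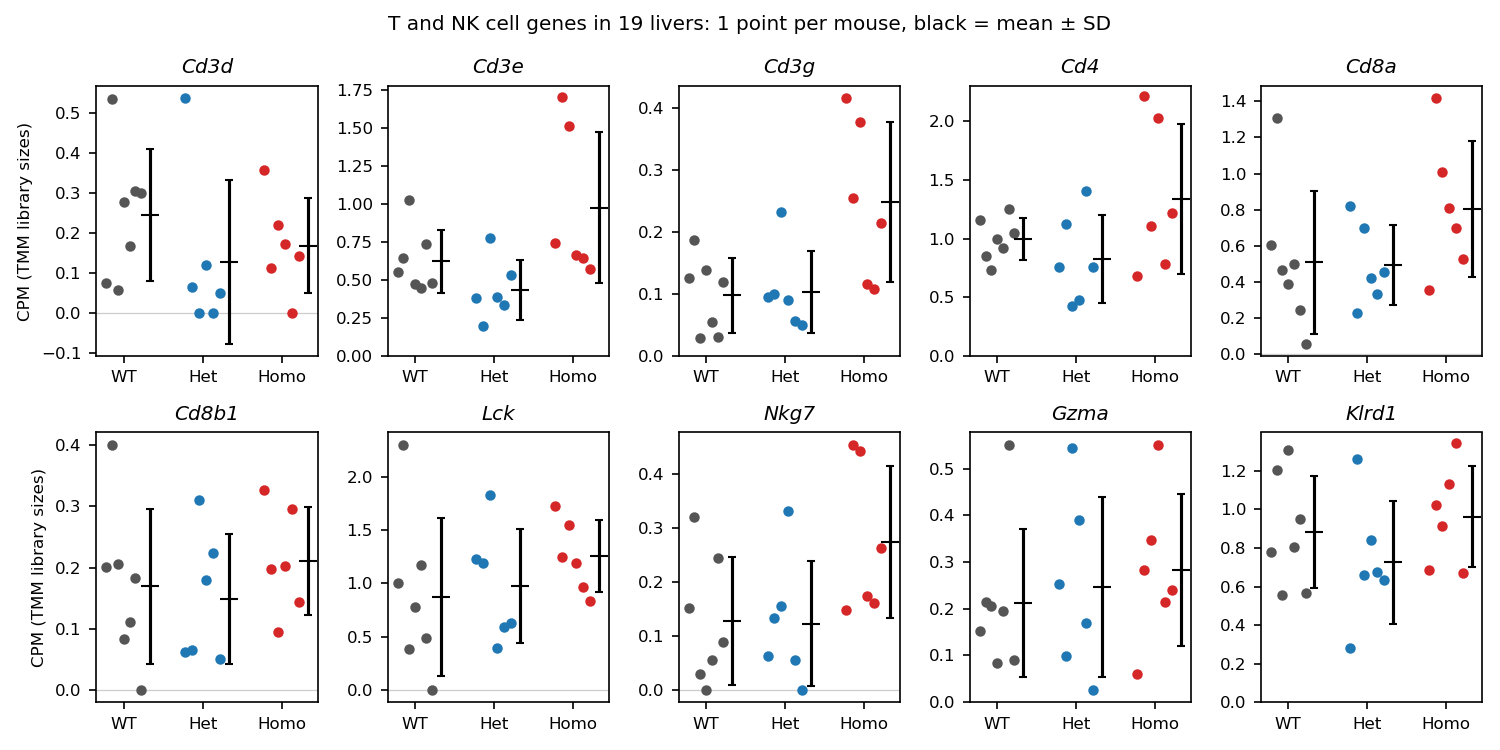
Level of each of the 10 genes in CPM (vertical axis, own scale for each gene) by Pkd1 genotype, with 1 point per mouse and the mean ± SD as a black bar. The genotypes overlap in every panel, and a bar that reaches below 0 (Cd3d) is an effect of the SD only. The highest Homo values of Cd3e (1.70 CPM) and Cd4 (2.21 CPM) come from mouse 10.

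The 3 CD3 genes lie side by side on chromosome 9 of GRCm38 (GENCODE M21): Cd3g from 44969572 to 44980431 on the minus strand, Cd3d from 44981786 to 44987339 on the plus strand and Cd3e from 44998740 to 45009627 on the minus strand. The gap between Cd3g and Cd3d is 1354 bases, and that between Cd3d and Cd3e is 11400 bases. Their promoters are shown because these neighbouring genes encode chains of one receptor and their levels over the genotypes are compared with each other here. Each line gives the 250 bases before the RefSeq start (GRCm38.p6), read 5′ to 3′ on the strand of the gene. The windows are chr9:44980432-44980681 (minus) for Cd3g, chr9:44981536-44981785 (plus) for Cd3d and chr9:45009612-45009861 (minus) for Cd3e. Capitals mark matches, on either strand, to 3 motifs bound by factors active in T cells: AGGAAG (ETS family), TGTGGT (RUNX family) and CAGNTG (an E-box).
Cd3g: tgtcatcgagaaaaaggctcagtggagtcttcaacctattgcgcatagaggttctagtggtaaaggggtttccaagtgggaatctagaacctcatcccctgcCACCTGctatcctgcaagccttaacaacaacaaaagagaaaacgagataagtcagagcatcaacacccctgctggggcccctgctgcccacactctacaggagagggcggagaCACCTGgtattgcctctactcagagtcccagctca
Cd3d: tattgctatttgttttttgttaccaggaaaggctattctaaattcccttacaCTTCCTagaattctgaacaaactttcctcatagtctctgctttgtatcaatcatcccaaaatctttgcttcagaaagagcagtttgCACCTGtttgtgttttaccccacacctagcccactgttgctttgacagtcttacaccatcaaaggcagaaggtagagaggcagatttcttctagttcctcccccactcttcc
Cd3e: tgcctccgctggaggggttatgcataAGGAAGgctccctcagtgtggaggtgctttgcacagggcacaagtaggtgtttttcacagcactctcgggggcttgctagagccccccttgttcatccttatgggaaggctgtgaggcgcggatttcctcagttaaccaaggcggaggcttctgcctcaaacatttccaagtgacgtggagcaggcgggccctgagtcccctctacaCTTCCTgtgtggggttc
Cd3g had 2 E-box matches, at 148 and 35 bases before the start. Cd3d had 1 ETS match at 198 bases and 1 E-box match at 112 bases. Cd3e had 2 ETS matches, at 224 and 17 bases. Of 32851 mouse promoter windows of the same length, 29.5% held the ETS letters, 14.0% the RUNX letters and 44.8% the E-box letters. A match describes letters only. Windows were matched for 7 of the 10 genes, and the searched letters were also found before Lck, Nkg7 and Gzma, but not before Cd8a.

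Cd3e, whose protein forms dimers with both other chains, was counted at 16 to 35 reads in WT livers (median 22), 6 to 21 in Het (median 12.5) and 23 to 60 in Homo (median 24.5). In CPM this was 0.622 ± 0.206 (SD, n = 7) in WT, 0.435 ± 0.198 (n = 6) in Het and 0.974 ± 0.497 (n = 6) in Homo. All 6 Homo livers were above the medians of both other genotypes, 2 of them above every WT liver. These 2 were mice 10 and 15, at 60 and 48 reads, and the other 4 Homo livers had 23 to 25. The log2 fold change of Homo against Het was 1.16 ± 0.35 (95% interval 0.42 to 1.90) and that of Homo against WT 0.64 ± 0.33 (−0.04 to 1.33), with adjusted p-values of 0.376 and 0.424 in edgeR. Het stood 0.52 lower than WT on the log2 scale, with an adjusted p of 0.695. The exact two-sided permutation test of log2 CPM, run 30 times over the 10 genes and 3 comparisons with no adjustment, gave p = 0.0152 for Homo against Het and 0.105 for Homo against WT. Exons of Cd3e overlap those of the gene Gm48719, and the strand used in counting is not given in the sources used here, so their reads cannot be told apart.

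Cd3g, whose protein pairs with the Cd3e product, was counted at 1 to 7 reads in WT (median 4), 2 to 6 in Het (median 3) and 4 to 14 in Homo (median 9). Of the 6 Homo livers, 4 were above every WT liver, and the other 2 lay inside the WT range. CPM were 0.0981 ± 0.0604 (SD, n = 7), 0.104 ± 0.0664 (n = 6) and 0.248 ± 0.130 (n = 6). Without the filter, edgeR gave 1.29 ± 0.53 for Homo against WT (95% interval 0.19 to 2.38, adjusted p = 0.384) and 1.24 ± 0.56 for Homo against Het (adjusted p = 0.690). The exact permutation test gave p = 0.0210 and 0.0216, before any adjustment for the 30 tests. Cd3d, which pairs with the Cd3e product as well, had its highest mean in WT: 2 to 20 reads in WT (median 10), 0 to 17 in Het (median 2) and 0 to 12 in Homo (median 6). Its log2 fold change was −0.55 ± 0.81 for Homo against WT and −0.92 ± 0.83 for Het against WT (adjusted p = 0.832 and 0.725, edgeR without the filter). Thus the 3 chains of the receptor did not share a direction in Homo against WT, and each of their intervals but that of Cd3g included 0.

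The coreceptor genes lie on chromosome 6: Cd8b1 from 71322788 to 71337494, Cd8a from 71373427 to 71379173, both on the plus strand and 35932 bases apart, and Cd4 from 124864692 to 124888221 on the minus strand. Cd4, which marks helper and regulatory T cells and in mice is also read in some other leukocytes, had 25 to 46 reads in WT (median 35), 11 to 50 in Het (median 27) and 23 to 78 in Homo (median 43). The WT livers were close together, with a coefficient of variation of 17.9% against 16.8% from counting alone. In Homo livers it was 47.8% against 14.5% from counting. Mice 10 and 16, at 78 and 70 reads, were the only Homo livers above every WT liver in CPM, and mouse 8 had 23 reads, below every WT liver. The log2 fold change was 0.43 ± 0.30 for Homo against WT and 0.69 ± 0.32 for Homo against Het, with adjusted p-values of 0.574 and 0.785 in edgeR.

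Cd8a, which encodes the alpha chain of CD8 and is also read in a class of dendritic cells, had 2 to 49 reads in WT (median 16), 7 to 26 in Het (median 16) and 12 to 50 in Homo (median 27). Cd8b1, the beta chain and more particular to T cells, had 0 to 15 reads in WT (median 6), 2 to 8 in Het (median 4) and 3 to 11 in Homo (median 7). The extremes of the WT group were the same mice for both genes: mouse 2 had the most (49 and 15 reads) and mouse 13 the fewest (2 and 0). Homo against WT was 0.64 ± 0.46 for Cd8a (adjusted p = 0.578) and 0.29 ± 0.60 for Cd8b1 (adjusted p = 0.904, without the filter). Homo against Het was 0.70 ± 0.48 for Cd8a and 0.50 ± 0.64 for Cd8b1 (adjusted p = 0.909 and 0.919). In the dendritic cell list, 6 of 9 tested genes were above 0 in Homo against WT and 0 were called, with a median of 0.08. Clec9a, which marks cross-presenting dendritic cells, was at 0.20 ± 0.13 (adjusted p = 0.523), and Siglech, which marks plasmacytoid dendritic cells, had the lowest p of the list at −0.73 ± 0.33 (adjusted p = 0.355).

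Lck (chromosome 4, 129548344 to 129573641, minus strand) encodes the kinase that starts signalling at the T cell receptor. It held the widest range of the 10 genes. WT livers ran from 0 reads in mouse 13 to 86 in mouse 2 (median 28), Het livers from 13 to 47 (median 30.5) and Homo livers from 35 to 58 (median 42.5). All 6 Homo livers were above the WT median, yet the WT group held both the lowest and the highest value. The WT coefficient of variation was 84.7% against 17.6% from counting, and that of Homo livers 26.9% against 15.1%. Lck was 0.51 ± 0.54 on the log2 scale above WT in Homo, and 0.14 ± 0.55 above it in Het, with adjusted p-values of 0.740 and 0.966 in edgeR. Its exons overlap those of the small RNA gene Mir8119.

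Among the genes of killer cells, Nkg7 (chromosome 7, 43437073 to 43438249, plus strand) had 0 to 12 reads in WT (median 3), 0 to 11 in Het (median 3) and 5 to 16 in Homo (median 8.5). No Homo liver fell below the WT median, and mice 10 and 15 held the highest values, 16 and 14 reads. Without the filter, the log2 fold change was 1.07 ± 0.72 for Homo against WT and 1.14 ± 0.76 for Homo against Het, with adjusted p-values of 0.552 and 0.728 in edgeR. The exact permutation test gave p = 0.0536 and 0.0455, unadjusted over the 30 tests.

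Gzma (chromosome 13, 113093825 to 113100981, minus strand) had 3 to 18 reads in WT (median 7), 1 to 14 in Het (median 7) and 2 to 19 in Homo (median 10). Klrd1 (chromosome 6, 129591782 to 129598775, plus strand) had 19 to 47 in WT (median 31), 9 to 38 in Het (median 24.5) and 23 to 50 in Homo (median 32.5). Neither gene separated the genotypes in any comparison. Homo against WT was 0.41 ± 0.56 for Gzma and 0.12 ± 0.29 for Klrd1, with adjusted p-values of 0.810 and 0.903 in edgeR.

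**Figure D2:**
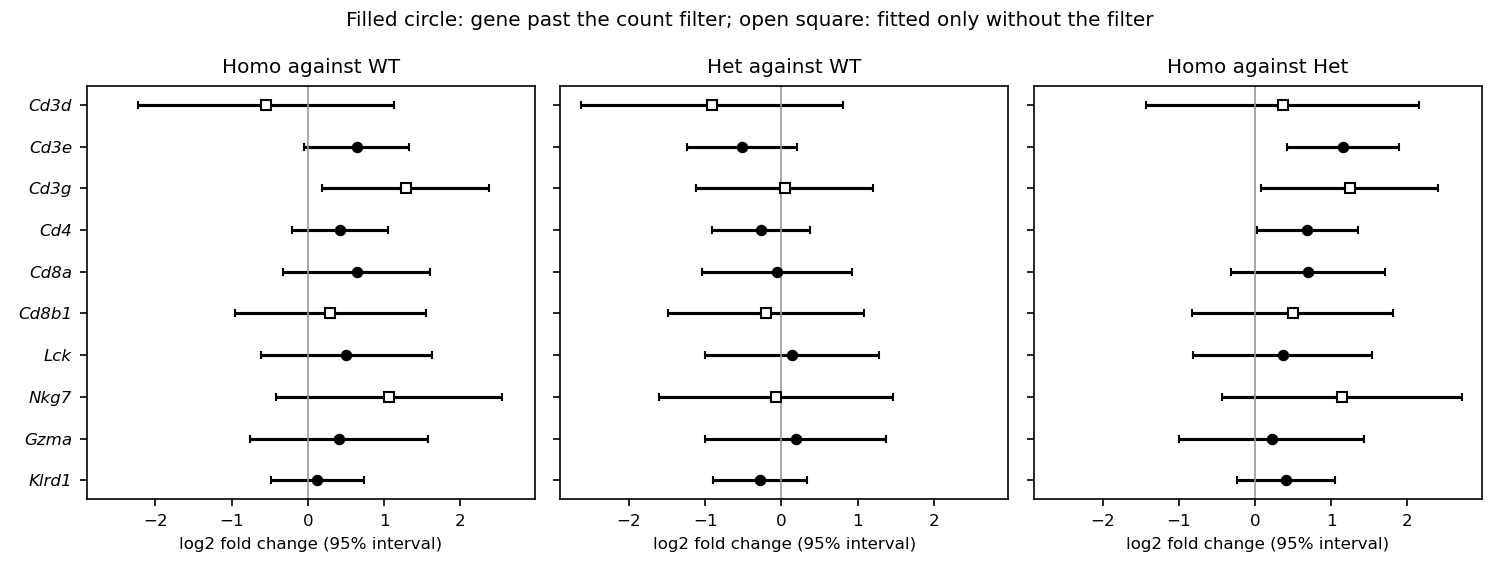
Log2 fold change (horizontal axis) of each gene in the 3 comparisons of genotypes from edgeR, with its 95% interval. Filled circles are genes that passed the filter on low counts, and open squares are genes with a value only from the fit without it. The interval excludes 0 for Cd3g in Homo against WT and for Cd3e, Cd3g and Cd4 in Homo against Het, and none of these passed after adjustment over all genes.

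In the count over all genes, no member passed an adjusted p of 0.05. Of the 6 members that passed the filter, 0 were called in Homo against WT, where 0.480% of 16463 tested genes were called. The count was also 0 in Het against WT, with 0.0243% of all genes called, and in Homo against Het, with 0.182%. Without the filter, 0 of the 10 were called, beside 0.225%, 0.0152% and 0.0761% of 26277 genes. With the filter and without adjustment, the counts under 0.05 were 0 of 6, 0 of 6 and 2 of 6 (Cd3e and Cd4), beside 12.9%, 8.84% and 6.29% of all genes. Fitted without the filter, all 10 genes had values, and 1 (Cd3g), 0 and 3 (Cd3e, Cd3g and Cd4) of them were under 0.05 unadjusted, beside 11.6%, 8.55% and 7.03% of all genes. DESeq2 also called 0 of the 10 in each comparison, beside 1.66%, 0.239% and 0.516% of all genes. Unadjusted, 1, 0 and 3 of the 10 were under 0.05 in DESeq2, beside 9.72%, 6.72% and 5.09% of all genes.

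The fold change without the filter was above 0 for 9 of the 10 genes in Homo against WT, 3 in Het against WT and 10 in Homo against Het. The shares over all genes were 49.0%, 47.2% and 48.0%. With the filter it was above 0 for 6, 2 and 6 of 6 genes, beside 50.3%, 49.1% and 49.7% of all genes. The medians over the 10 were 0.46, −0.14 and 0.59, while those of all genes were at 0. The comparisons share their samples, so these counts are not separate evidence. The summed level of the 10 genes was 4.74 ± 1.61 CPM (SD, n = 7) in WT, 4.21 ± 0.854 (n = 6) in Het and 6.51 ± 1.59 (n = 6) in Homo. The highest mouse was mouse 10 (Homo) at 8.90 CPM, the next was mouse 2 (WT) at 7.96, and the lowest was mouse 13 (WT) at 2.75.

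Leaving out each liver in turn kept Cd3e in Homo against Het at an unadjusted edgeR p under 0.05 in 19 of 19 fits, with fold changes of 0.93 to 1.38. Cd4 kept it in 12 of 19 fits, among them all 7 that left out a WT liver. WT livers are in neither group of Homo against Het, so those 7 fits left both compared groups as they were. With the mouse number of the labels as a covariate, Homo against WT was 0.81 for Cd3e, 1.32 for Cd8a and 1.29 for Lck, with adjusted p-values of 0.615, 0.485 and 0.577. In that fit 3 of the 6 tested members had an unadjusted p under 0.05, beside 7.91% of all genes. Without mice 1 to 3, which are all WT, Cd8a was 1.41 in that comparison. With 1 liver left out, Homo against WT ran from 0.40 (without mouse 10) to 1.06 (without mouse 2) for Cd8a and from 0.29 (without mouse 13) to 0.95 (without mouse 2) for Lck. It ran from 0.23 (without mouse 10) to 0.55 (without mouse 8) for Cd4 and from 0.10 (without mouse 16) to 0.61 (without mouse 8) for Gzma, which fell under the filter when mouse 12 was left out. For Cd3e the lowest value was 0.41, without mouse 10, and for Klrd1 the values ran from 0.0033 (without mouse 17) to 0.24 (without mouse 9).

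Over the 19 mice, 39 of the 45 pairs of members had a positive correlation of log2 CPM, with a median Pearson r of 0.22 and a range of −0.23 to 0.77. Adjusted over the 45 pairs, 1 passed by Pearson's r and 0 by Spearman's rho. That pair was Cd8a with Lck, with r = 0.77 (permutation p = 0.00039, adjusted 0.0176) and rho = 0.62 (permutation p = 0.00522, adjusted 0.0783). Without mice 13 and 10, r was 0.57. Within genotypes, r was 0.94 in WT, 0.39 in Het and −0.03 in Homo, and the difference between these was not tested. Cd8a with Cd8b1 had r = 0.54 (permutation p adjusted 0.167), rho = 0.29, and r = 0.25 without mice 13 and 10.

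Nkg7 and Gzma, both genes of cytotoxic granules, had r = 0.60 (permutation p = 0.00705, adjusted 0.153) and rho = 0.69 (permutation p = 0.00155, adjusted 0.0536), and r was 0.39 without mice 20 and 9. No pair of CD3 chains passed. Cd3d with Cd3e had r = 0.06 and rho = 0.02, Cd3d with Cd3g r = 0.23 and rho = 0.25, and Cd3e with Cd3g r = 0.44 and rho = 0.43. For the last pair r was 0.14 without mice 10 and 15, and it was −0.55 within WT, 0.47 within Het and 0.51 within Homo.

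**Figure D3:**
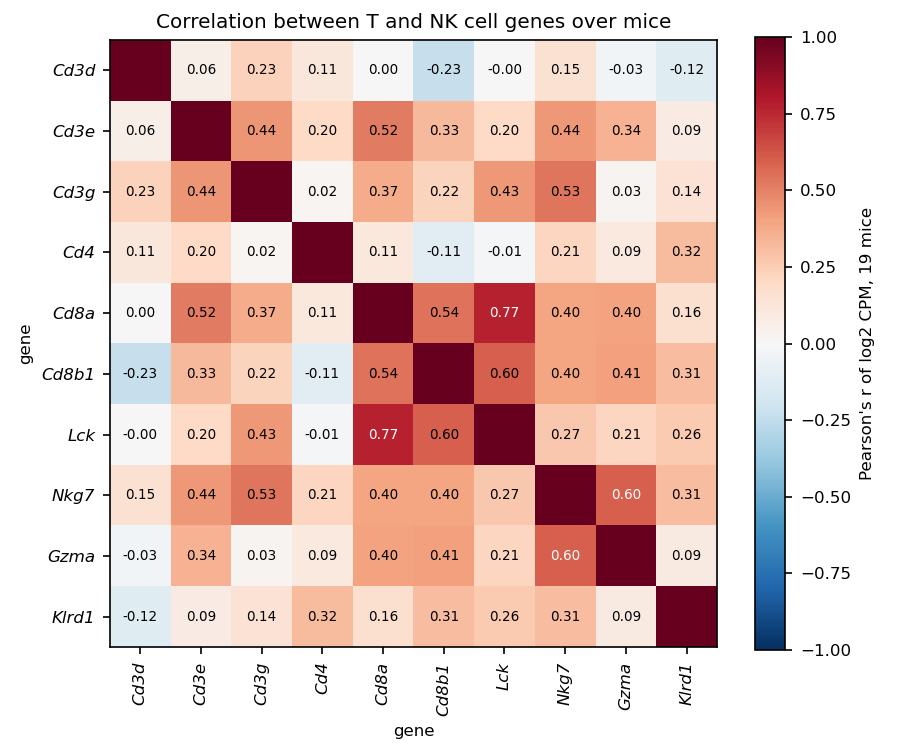
Pearson's r of log2 CPM between each pair of the 10 genes (both axes) over 19 mice, in colour from blue (negative) to red (positive). The highest value off the diagonal is that of Cd8a with Lck, 0.77, and Cd3d has values near or below 0 with most other genes.

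The labels number the mice, and the WT mice are 1 to 3, 9 and 11 to 13, with none above 13. This number is thus partly confounded with genotype, and the labels do not say what it means. Over all mice no member was correlated with it after adjustment over the 10 genes, and r ran from −0.31 (Cd3d) to 0.22 (Cd4). Within WT, Cd8a had r = −0.76 (exact permutation p = 0.0173) and rho = −0.86 (exact p = 0.0238), with 0.173 and 0.238 after adjustment. Lck had r = −0.55 within WT, −0.77 within Het and −0.76 within Homo, where rho was −0.94 (exact p = 0.0167, adjusted 0.167). With genotype in the model, edgeR gave Lck a slope of −0.10 per number and Cd8a −0.08, on the log2 scale, with adjusted p-values of 0.144 and 0.211 over all genes. The covariate fit above gives the differences between genotypes with the number in the model. As number and genotype are partly confounded, that fit cannot tell their parts apart.

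**Figure D4:**
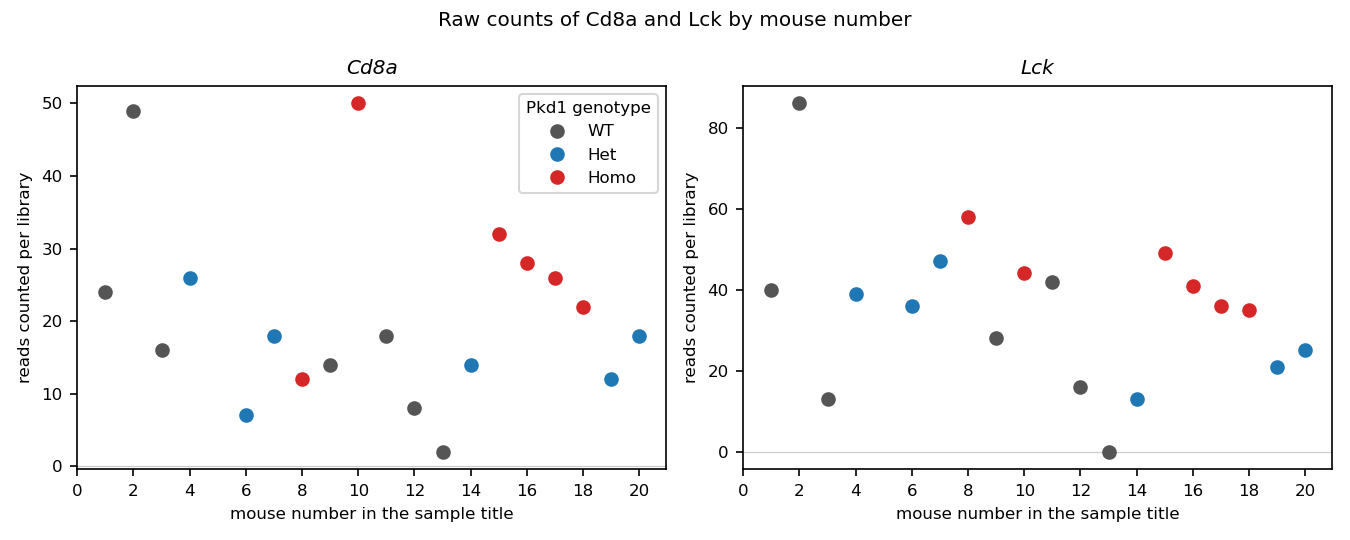
Reads counted for Cd8a and Lck in each library (vertical axes) against the number in the sample's title (horizontal axis), with 1 point per mouse and the Pkd1 genotype in colour. Mouse 2 (WT) holds 49 and 86 reads and mouse 13 (WT) 2 and 0 reads, and the 6 Homo mice have 35 to 58 reads of Lck.

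The wider set of T and NK genes, 79 in 6 lists, had 51 tested genes, and 0 were called in any comparison. In Homo against WT, 34 of the 51 were above 0, with a median of 0.17, and 5 higher and 2 lower had an unadjusted p under 0.05. Of all tested genes, 50.3% were above 0 and 12.9% had such a p. In Homo against Het 37 were above 0 (median 0.23), and in Het against WT 22 were (median −0.08), beside 49.7% and 49.1% of all genes. By list, the counts above 0 in Homo against WT were 8 of 11 for receptor signalling, 8 of 13 for surface and homing genes, 10 of 12 for transcription factors, 3 of 5 for cytotoxic effectors, 2 of 6 for NK receptors and 3 of 4 for inhibitory receptors. NK receptors were the only one of the 6 lists with a median below 0 in that comparison, at −0.05.

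Lat, the adaptor that links the receptor to downstream signalling, was 1.49 ± 0.65 higher in Homo against WT and 2.36 ± 0.73 higher in Homo against Het, with adjusted p-values of 0.344 and 0.379 in edgeR. Its reads were 4 to 32 in WT, 0 to 19 in Het and 4 to 46 in Homo. Thy1, a surface protein of T cells that fibroblasts also make, was 1.03 ± 0.36 higher in Homo against WT (adjusted p = 0.237), and Cd247, the zeta chain of the receptor, was 0.35 ± 0.15 higher (0.327). Gzmm, granzyme M, was 1.66 ± 0.55 higher (0.206), with 9 to 18 reads in WT and 12 to 55 in Homo. Ctsw, cathepsin W of cytotoxic cells, was at −0.82 ± 0.26 (0.174), and the NK receptor gene Ncr1 was at −0.85 ± 0.64 (0.597). Zbtb7b, listed as a T cell transcription factor, was at 26.2 ± 4.66 RPKM (SD, n = 19), far above any of the 10 genes.

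**Figure D5:**
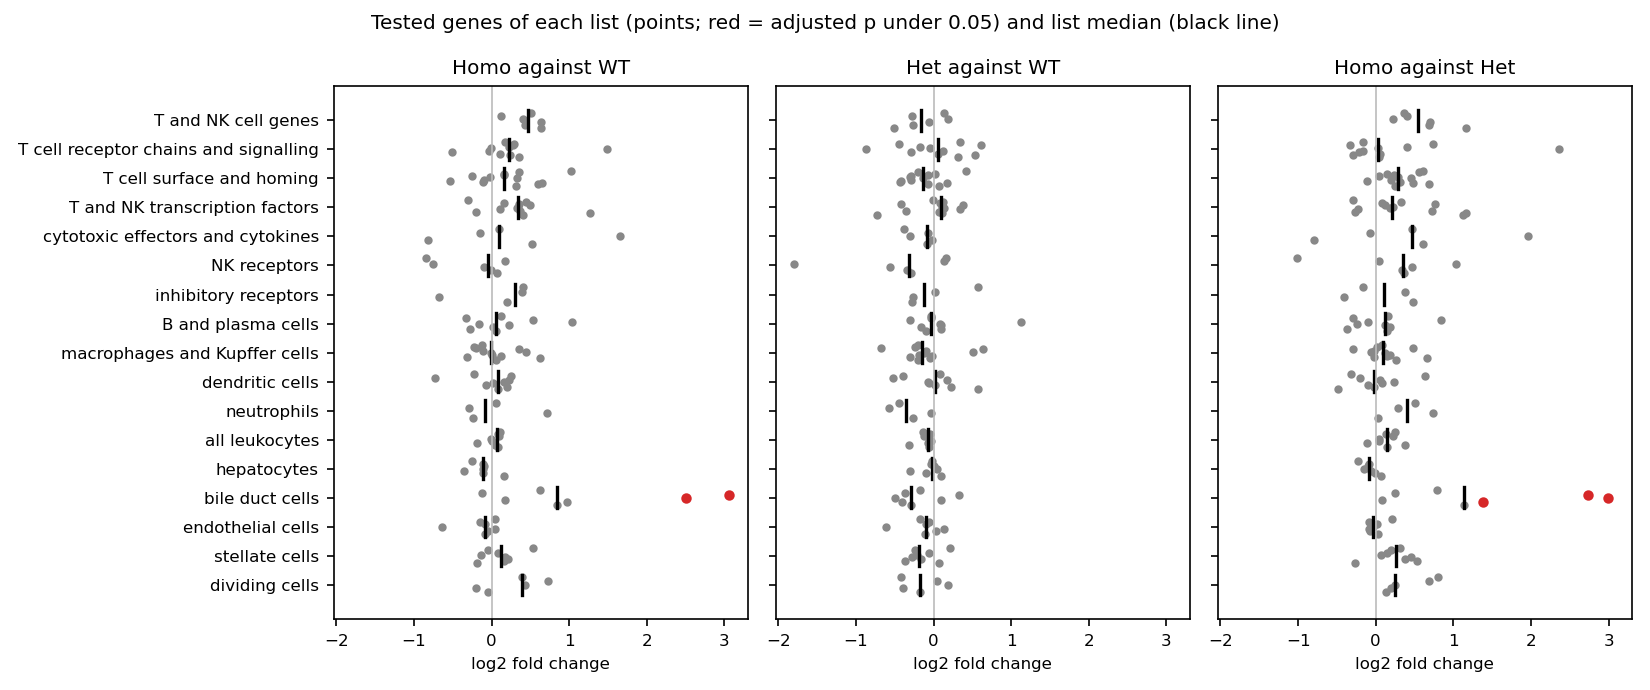
Log2 fold change (horizontal axes) of every tested gene in each gene list (rows) for the 3 comparisons of genotypes, with the list's median as a black line and called genes in red. No T or NK list holds a called gene, and the bile duct list holds Krt7, Krt19 and, in Homo against Het, Epcam.

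Markers of other cells were measured beside these genes. Over the 8 leukocyte genes the summed level was 108 to 148 CPM in WT, 106 to 139 in Het and 103 to 146 in Homo, and the B and plasma cell list was at 9.95 to 20.9, 11.3 to 18.8 and 11.6 to 20.5. Both lists overlapped between all genotypes. The bile duct list was the one with called genes: its sum was 133 to 226 CPM in WT, 130 to 208 in Het and 198 to 261 in Homo. The dividing cell list was at 13.0 to 17.1, 9.04 to 18.4 and 18.3 to 24.9, with 3 of 5 tested genes above 0 and 0 called in Homo against WT. The stellate cell list was at 93.5 to 174, 108 to 127 and 128 to 178, with 7 of 8 genes above 0 and 0 called in Homo against Het. The T cell surface and homing list was at 27.4 to 34.8, 26.2 to 31.3 and 32.0 to 37.0. Of the 17 lists, the sum did not overlap for 1 in Homo against WT (dividing cells), for 0 in Het against WT and for 2 in Homo against Het (stellate cells, and T cell surface and homing). Among single tested genes the shares were 0.911%, 0.194% and 0.686%, and no such share was computed for sums of other genes. A list's sum follows its highest genes. In the T cell surface and homing list S1pr1 was the highest, at 4.05 ± 0.499 RPKM (SD, n = 19), beside 0.230 ± 0.104 for Cd2 and 0.191 ± 0.103 for Thy1. Which cells gave the reads of that list was not tested. The lists of B and plasma cells, macrophages, dendritic cells, neutrophils, all leukocytes, hepatocytes, endothelial cells, stellate cells and dividing cells held 0 called genes in each comparison. The part of bile duct, dividing and stellate cells in the values of the 10 genes was not tested.

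By Spearman's rho over the 19 libraries, the 5 tested genes most like Cd3e were Rad50 (0.84), Atp9b (0.80), Smc2 (0.77), Crp (0.74) and Tppp3 (0.74). Those most like Nkg7 were Ccnd2 (0.83), Rras2 (0.80), Ifi204 (0.76), Slc9a7 (0.76) and Clstn1 (0.73). None of these 10 is on a T or NK list. They were the highest of 16457 genes and are given as a description.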

How the data were processed

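RNA from 19 mouse livers was sequenced, and the authors deposited a table of raw counts, whole reads per gene symbol with no normalization. The submitters' processing notes list STAR 2.7.2b, featureCounts 1.6.4 and build GRCm38. For strand, annotation and other options the sources used here give nothing. The 27 rows named by a date hold at most 0.174% of a library's counts and were left in the totals.

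Groups were taken from the genotype label. Counts were tested in R 4.3.3 with edgeR 4.0.16 (TMM, filterByExpr by genotype, quasi-likelihood F test), with all 19 libraries in 1 fit, and p-values were adjusted by Benjamini-Hochberg over 16463 genes. A threshold of 0.05 was used, two-sided. Members under the filter were fitted without it (26277 genes). CPM used TMM library sizes, and log2 CPM a prior count of 2. RPKM used exon lengths of GENCODE M21. Alternatives included DESeq2 1.42.0 and limma 3.58.1 (voom). Exact permutation tests and correlations were written in Python 3.11.15, with scipy 1.17.1 for ranks and for a check of the permutation test. Scripts were tested on simulated data. Every pair of libraries within a genotype differed by more than sampling noise (lowest chi-square per df 21.6). The labels number the libraries without stating outright that each is a separate mouse, so p-values measure the spread between these samples.

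The members and lists were chosen with earlier results of these data known. All 10 members are named. From each other list the rule takes called genes, or otherwise up to 3 by lowest p for Homo against WT, and the text names some of these. Adgre1, Pkd1 and S1pr1 are named outside it, after their values were seen. The 5 genes with the highest rho with Cd3e and with Nkg7 are also named. Trac, Trbc1, Trbc2, Trdc, Trgc1, Cd244a, Ighm, Igkc and Tf are not used here, as no row has these names.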

Additional observations from a re-analysis of the deposited data

How the results depend on the processing

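No member was called under any alternative. Of 528 alternative values of the members' fold changes, 515 kept their direction. Fits with 1 library left out gave 369 of the 528. In each comparison Cd3g, Cd8b1 and Nkg7 had only 1 alternative value each, and Cd3d 12 or 13. The other genes had 24 to 28. Klrd1 in Homo against WT was −0.10 within mice 8 to 13. Cd8a in Het against WT was 0.26 with voom, 0.41 with mouse number as a covariate and 0.71 without mice 1 to 3. Leaving out a library gave it −0.27 to 0.37, Lck in Het against WT −0.13 to 0.59, Gzma in Het against WT −0.18 to 0.44 and Gzma in Homo against Het −0.084 to 0.59. The cause was not tested. Of all genes, 79 were called in Homo against WT, but 328 with DESeq2, 38 with the covariate, 25 without mice 1 to 3, 2 within mice 8 to 13 and 35 to 122 with a library left out (45, 35 and 41 without Homo replicates 2, 3 and 4, and 41, 36, 122 and 49 without WT replicates 1, 3, 6 and 7). In Het against WT, 4 became 46 with DESeq2 and 4 to 7 with a library left out (7 without WT replicate 6). In Homo against Het, 30 became 112 with DESeq2, 16 with voom, 0 within mice 14 to 20 and 9 to 34 with a library left out (17, 12 and 11 when Homo replicates 1, 2 and 3 were dropped, and 13, 12 and 9 for those of Het). The fits within mice 8 to 13 and within mice 14 to 20 held fewer livers. Only mice 8 and 10 are Homo in the former, and only mice 14, 19 and 20 are Het in the latter. Of the 30 exact permutation tests, 4 gave an unadjusted p under 0.05 with either prior count. These tests were run on the 10 members only, so no share over all genes can be set beside that count. No paired analysis was possible because the genotypes share no number in the labels. Both counting error and the spread between livers limit the precision: in WT livers the coefficient of variation of Lck was 84.7%, against 17.6% from counting alone, and that of Cd3g was 61.6%, against 52.9% from counting.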
